A study of Mus musculus with 28 samples.

Results

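The regions described here are narrow SSRP1 peaks of mouse embryonic stem cells (mESCs) that are shared with SUPT16. A region was included if it was listed as an SSRP1 peak, was shorter than 1000 bp, and overlapped a SUPT16 peak by at least 1 bp. This rule selected 1027 of the 10114 SSRP1 peaks. Of the remaining SSRP1 peaks, 7789 were as narrow but touched no SUPT16 peak, and 1298 were broad, that is, 1000 bp or longer. The SUPT16 list held 3855 peaks, of which 2045 touched no SSRP1 peak.

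SSRP1 and SUPT16 are the subunits of FACT, a histone chaperone that binds H2A-H2B dimers and nucleosomes, loosens the nucleosome ahead of a polymerase, and helps to rebuild it behind. FACT travels with elongating RNA polymerase II and is best known for keeping chromatin intact over transcribed genes. A region listed for both antibodies is one where both subunits were detected, each in its own experiment.

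The study profiled FACT in the E14 mESC line grown in serum with LIF, by ChIP-seq of SSRP1 and of SUPT16 (2 replicates for each, pooled into 1 peak list per subunit). It also measured RNA after depletion of SSRP1. Gene expression values with ERCC spike-ins were available for 4 control libraries and 4 Ssrp1 knock down (KD) libraries, and RNA of the chromatin compartment for 2 libraries of E14 cells. Control cells received a scramble shRNA vector and KD cells a pair of Ssrp1 shRNA vectors, and both were selected with puromycin before collection. Neither list gives peak heights or the signal of single replicates. The ChIP depth is therefore unknown, and intervals on shares of peaks cover counting error only.

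Ssrp1 itself checked the KD labels. Its values were 261, 229.8, 223, and 226 in the control libraries and 24.1, 26.4, 24.9, and 28.9 in the KD libraries, a log2 fold change of -3.15 (SE 0.07, limma adjusted p = 1.18e-22). Supt16 RNA read 346, 307, 296, and 326 in control and 529, 481, 507, and 498 in KD. Its log2 fold change was 0.66 (SE 0.06, limma adjusted p = 5.24e-11), but 0.03 after quantile normalization. The 8 embryonic stem cell markers all had values, and their sum was between 1587 and 1714 in control and between 4610 and 5111 in KD; the part of this shift in the results below was not tested. For the other cell types, 3 of 6 fibroblast, 3 of 5 neural progenitor, 3 of 4 trophectoderm, and 3 of 4 primitive endoderm markers had a value, and the sum of each of these sets was lower in KD without overlap. The fibroblast sum was 35.5 to 46.5 in control and 11.2 to 12.6 in KD, the neural progenitor sum 50.0 to 62.6 and 36.7 to 38.1, the trophectoderm sum 23.7 to 30.5 and 6.73 to 9.89, and the primitive endoderm sum 30.8 to 47.0 and 9.52 to 12.7. Their part in the results below was not tested.

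Because sequence composition turned out to be a main feature of the shared narrow peaks, the centres of 6 of them are printed first. They are 6 of 10 windows, picked after their sequences were seen. Each of the 10 belongs to the gene with the highest control value per kilobase in one of the lists described below, among genes whose peak lay within 1000 bp of their own transcription start site (TSS) and whose central 200 bp held no untranslated exon sequence. Each is given 5′ to 3′ on the strand of the gene, from RefSeq's GRCm38 (the assembly that mm10 names), and capitals mark CpG dinucleotides. The Hnrnpk window (chr13:58401776-58401975, minus strand, intron) lies in the gene of an RNA-binding splicing regulator, that of Eif4h (chr5:134638720-134638919, minus strand, intron) in that of a translation initiation factor, and that of Rtf1 (chr2:119675198-119675397, plus strand, centre in an intron) in that of a subunit of the PAF1 elongation complex. The Rpl26 window (chr11:68901839-68902038, plus strand, intron) belongs to a ribosomal protein gene, and the Nodal window (chr10:61418608-61418807, plus strand, intron) to the gene of a TGF-beta family ligand. The last window (chr8:43301299-43301498, minus strand, centre in an annotated intron) lies upstream of a TSS of Zfp42, which encodes the stem cell marker REX1.
Hnrnpk: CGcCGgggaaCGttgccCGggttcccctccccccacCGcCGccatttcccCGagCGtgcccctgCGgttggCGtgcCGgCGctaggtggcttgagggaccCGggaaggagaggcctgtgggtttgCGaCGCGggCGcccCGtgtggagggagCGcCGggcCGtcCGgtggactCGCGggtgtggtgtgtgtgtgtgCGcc
Eif4h: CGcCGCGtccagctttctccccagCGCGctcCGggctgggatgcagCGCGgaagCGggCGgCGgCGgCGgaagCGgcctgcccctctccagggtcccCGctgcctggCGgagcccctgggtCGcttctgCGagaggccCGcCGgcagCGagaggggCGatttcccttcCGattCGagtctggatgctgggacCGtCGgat
Rtf1: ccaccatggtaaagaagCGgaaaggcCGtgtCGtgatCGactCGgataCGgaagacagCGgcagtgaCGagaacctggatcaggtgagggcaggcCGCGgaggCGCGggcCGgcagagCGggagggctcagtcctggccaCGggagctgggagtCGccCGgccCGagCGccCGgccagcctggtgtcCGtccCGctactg
Rpl26: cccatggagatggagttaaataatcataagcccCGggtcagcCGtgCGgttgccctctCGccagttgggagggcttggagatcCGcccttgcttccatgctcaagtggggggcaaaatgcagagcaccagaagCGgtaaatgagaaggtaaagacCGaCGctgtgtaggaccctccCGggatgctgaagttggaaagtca
Nodal: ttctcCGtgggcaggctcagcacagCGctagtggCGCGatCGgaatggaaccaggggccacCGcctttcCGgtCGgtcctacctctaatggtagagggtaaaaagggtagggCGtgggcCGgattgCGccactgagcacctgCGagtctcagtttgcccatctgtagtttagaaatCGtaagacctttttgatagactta
Zfp42: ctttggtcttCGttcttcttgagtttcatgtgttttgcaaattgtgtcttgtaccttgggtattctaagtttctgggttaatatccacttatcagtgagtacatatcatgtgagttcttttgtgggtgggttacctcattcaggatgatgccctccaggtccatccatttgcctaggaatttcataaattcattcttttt

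The windows of Hnrnpk, Eif4h, and Rtf1 held 25, 26, and 22 CpG dinucleotides at a GC content of 74.5%, 73.5%, and 69.5%. Rpl26 and Nodal held 9 and 13 at 56.0% and 55.5%. The Zfp42 window held 1 at 38.5% and was soft-masked as repeat over 100% of its length. The first 3 are above and the next 2 below the median GC content of shared peaks at a TSS given below, and the Zfp42 window stands for the minority in repeats. Its SSRP1 and SUPT16 peaks overlapped by only 56 bp.

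The shared narrow peaks were short and mostly matched 1 SUPT16 peak each. Lengths came in steps of 98 bp for SSRP1 and 70 bp for SUPT16. The shortest class, 294 bp, held 262 of the shared peaks and the longest, 980 bp, held 74. Just above the length limit, 80 SSRP1 peaks of 1078 bp overlapped SUPT16. Of the 1027 peaks, 13 touched 2 SUPT16 peaks, and 1022 different SUPT16 peaks served as the partner with the longest overlap. The overlap had a median of 280 bp (quartiles 210 and 392 bp) and ranged from 14 to 980 bp. SUPT16 covered a median of 59.5% of the SSRP1 peak, and 138 peaks were covered wholly. The centres of both peaks lay a median of 112 bp apart (quartiles 49 and 224 bp).

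Longer SSRP1 peaks were shared more often, which the overlap rule itself favours. The share was 5.76% for peaks of 294 bp and 34.1% for peaks of 980 bp. For this reason the comparisons of TSS share, GC content at a TSS, and GC box share with SSRP1-only narrow peaks are also given at equal length.

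Shared narrow peaks sat mostly at transcription start sites. Of the 1027 peaks, 737 lay within 1000 bp of a TSS (71.8%, 95% Wilson interval 68.9 to 74.4%), and 467 contained one (45.5%). The narrow SSRP1-only peaks lay at a TSS in 36.3% of cases (2829 of 7789), a difference of 35.4 points (95% Newcombe interval 32.4 to 38.3). At equal length the shared peaks had the higher share in all 8 length classes. The difference was 40.7 points (interval 34.7 to 46.1) at 294 bp and 17.03 points (3.45 to 29.0) at 980 bp. Broad SSRP1 peaks reached 60.5% and SUPT16 peaks without SSRP1 58.5%, so that the shared narrow peaks exceeded both (11.3 points, interval 7.42 to 15.1, and 13.3 points, 9.74 to 16.7). A TSS inside the peak was less frequent in shared narrow than in broad peaks (53.2%, difference -7.69 points, -11.7 to -3.59), and longer peaks contain a TSS more readily.

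Within the TSS group the peaks lay slightly inside the gene. Measured along the direction of transcription, the SSRP1 centre had a median position of +125 bp (quartiles -26 and +291 bp), and 520 of 737 centres were downstream of the TSS (70.6%). The SUPT16 partners centred at a median of +152 bp (quartiles -27 and +309 bp). The offset between both centres along the gene had a median of 7 bp, well within its quartiles of -112 and 140 bp, so no order of the subunits along the gene was seen. The narrow SSRP1-only peaks at a TSS had a median of +112 bp with wider quartiles (-90 and +313 bp). The annotation under the centre was an untranslated or non-coding exon part in 272 of the 737 peaks, an intron in 225, a coding exon in 137, and intergenic in 103. TSSs on both strands lay within 1000 bp of 174 of these peaks (23.6%, interval 20.7 to 26.8%), against 19.4% of narrow SSRP1-only peaks at a TSS, a difference of 4.24 points (0.953 to 7.74). Broad peaks at a TSS (23.1%) and SUPT16 peaks without SSRP1 at a TSS (23.4%) had similar shares, with differences of 0.55 points (-3.69 to 4.81) and 0.20 points (-3.64 to 4.14).

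**Figure D1:**
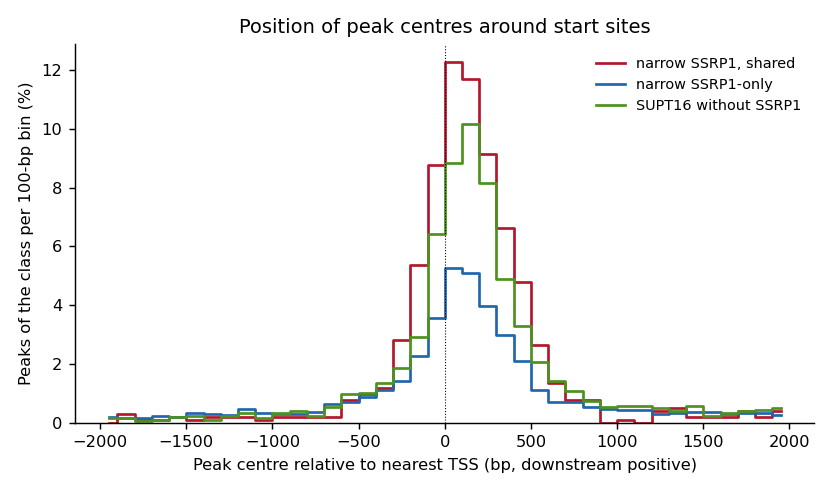
Percentage of each class of peaks (y axis) per 100-bp bin of the distance from peak centre to the nearest TSS (x axis, bp, downstream positive), for shared narrow peaks (red), narrow SSRP1-only peaks (blue), and SUPT16 peaks without SSRP1 (green). All 3 classes peaked within the first 200 bp downstream, where the shared narrow peaks reached 12.3% per bin and the SSRP1-only peaks 5.28%.

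The remaining 290 shared narrow peaks were farther from a TSS. Of these, 106 lay within 5000 bp of one and 32 over 50000 bp away. Their centres were intergenic in 143 cases, intronic in 96, in a coding exon in 29, and in another exon part in 22. Over 50% of the central 300 bp was soft-masked repeat in 72 of the 290 (24.8%), compared with 16 of the 737 at a TSS (2.17%). The share of repeats away from a TSS was the same 24.8% in the narrow SSRP1-only peaks. Transfer RNA genes, which RNA polymerase III transcribes, overlapped 20 of the shared peaks and 29 of the 7789 SSRP1-only peaks (difference 1.58 points, interval 0.873 to 2.62). Broad peaks overlapped one in 23 of 1298 cases (1.77%), and the difference of 0.18 points from the 1.95% of shared narrow peaks had an interval that included 0 (-0.93 to 1.37). Put the other way, 40.8% of the 49 narrow SSRP1 peaks on a tRNA gene were shared with SUPT16, compared with 11.6% of all narrow SSRP1 peaks.

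The shared peaks were spread over all chromosomes. Chromosome 11 held 113 (0.926 per Mb), chromosome 8 held 103 (0.796 per Mb), and chromosome X held 13 (0.0760 per Mb). The share on chromosome 8 was 10.0% for shared peaks and 9.87% for narrow SSRP1-only peaks, but 21.5% for broad peaks. Chromosome 11 held a larger share of the shared peaks than of the narrow SSRP1-only peaks (7.72%), by 3.29 points (interval 1.41 to 5.43). Against SUPT16 peaks without SSRP1 (9.78%) the difference was 1.22 points, with an interval that included 0 (-1.01 to 3.61).

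Shared narrow peaks were rich in GC and CpG. The central 300 bp of those at a TSS had a median GC content of 68.7% and 29 CpG dinucleotides, and those away from a TSS 52.5% and 6. The narrow SSRP1-only peaks had medians of 62.7% and 20 at a TSS and 51.0% and 5 away from one. SUPT16 peaks without SSRP1 at a TSS came close to the shared peaks, with 67.3% and 27. At equal length, shared peaks at a TSS had the higher median GC content than SSRP1-only peaks from 294 bp (69.0% against 61.3%) to 882 bp (67.3% against 65.0%). At 980 bp they had the lower one (64.2% against 66.3%). All 32817 RefSeq promoter windows (250 bp before to 50 bp after the start) had medians of 52.7% and 7. A 300-bp window with at least 55% GC and an observed-to-expected CpG ratio of at least 0.65 was found at 577 of the 737 shared peaks at a TSS (78.3%, interval 75.2 to 81.1%). The share was 52.8% for SSRP1-only peaks at a TSS (difference 25.5 points, 21.9 to 28.9) and 69.1% for SUPT16 peaks without SSRP1 at a TSS (difference 9.14 points, 5.11 to 13.03). The shared narrow peaks thus exceeded either single list.

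The share of narrow SSRP1 peaks that were also found with SUPT16 followed GC content at start sites. It was 6.86% (interval 4.79 to 9.74%) below 50% GC, 11.8% (9.83 to 14.1%) from 50 to 60%, 23.7% (21.4 to 26.2%) from 60 to 70%, and 30.1% (27.4 to 33.0%) at 70% or more. Away from a TSS the share stayed at 5.45%, 4.61%, and 5.94% in the first 3 classes and was 40.7% (28.7 to 54.0%) in the highest, which held 54 peaks. At 60 to 70% GC a TSS thus went with a 23.7% share and its absence with 5.94%, intervals that do not overlap. GC content can also affect recovery of fragments by sequencing, and its part in these shares was not tested. The GC classes were not matched for peak length.

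**Figure D2:**
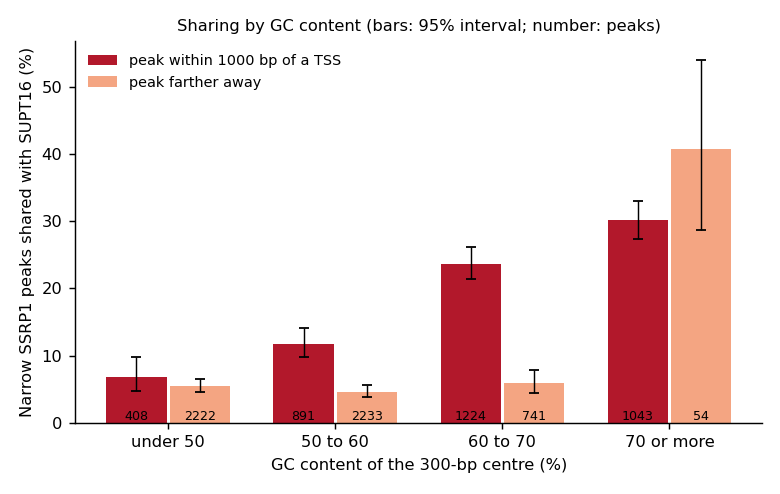
Percentage of narrow SSRP1 peaks shared with SUPT16 (y axis) by GC content of the central 300 bp (x axis), for peaks within 1000 bp of a TSS (dark bars) and farther away (light bars), with 95% Wilson intervals and the number of peaks inside each bar. At a TSS the share rises from 6.86% to 30.1%, and elsewhere it stays below 6% up to the class of 70% GC or more.

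Of 16 short motifs searched on both strands of the central 300 bp, the GC box set the shared peaks apart most. The GC box (GGGCGG or CCGCCC), the binding sequence of SP and KLF family factors, was present in 69.5% of shared peaks at a TSS and in 50.8% of SSRP1-only peaks at a TSS, a difference of 18.7 points (Newcombe interval 14.8 to 22.4). It was found in 35.6% of all promoter windows, which were matched neither for GC content nor for position relative to the TSS. At equal length the shared peaks had the higher share in all 8 length classes, by 4.17 to 27.5 points, with intervals that included 0 at 784 and 980 bp. The CCAAT box (CCAAT or ATTGG), bound by NF-Y, was less frequent in the shared peaks (17.4%) than in SSRP1-only peaks (23.7%, difference -6.35 points, -9.37 to -3.07) and promoters (37.4%). The TATA box core (TATAAA or TTTATA) was present in 2.85%, 4.91%, and 13.6% of these windows, with a difference of -2.06 points (-3.37 to -0.422) between shared and SSRP1-only peaks. Compared with SUPT16 peaks without SSRP1 at a TSS, the GC box was again more frequent in shared peaks (difference 9.69 points, 5.30 to 13.96), whereas the intervals included 0 for the CCAAT box (-1.95 points, -5.41 to 1.66) and the TATA box (0.26 points, -1.19 to 1.91).

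These motif differences narrowed at similar GC content. In windows of 70% GC or more the GC box was found in 88.9% of shared and 87.7% of SSRP1-only peaks (difference 1.20 points, interval -3.33 to 5.18), from 60 to 70% GC in 65.9% and 58.5% (7.404 points, 0.965 to 13.5), and below 60% in 31.6% and 21.5% (10.1 points, 2.36 to 18.7). The CCAAT and TATA differences between shared and SSRP1-only peaks had intervals that included 0 in each of the 3 classes. Promoter windows held the GC box in 92.1% of cases at 70% GC or more, 75.1% from 60 to 70%, and 16.8% below 60%. At 60% GC or more they thus held it more often than the shared peaks.

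The motifs of pluripotency factors were rare. The ESRRB motif (TCAAGGTCA or TGACCTTGA) was found in 0 of 737 shared peaks at a TSS and in 3 of 290 away from one, and in 0.672% and 1.51% of the corresponding SSRP1-only peaks (difference at a TSS -0.672 points, -1.05 to -0.0997). The octamer of POU factors (ATGCAAAT or ATTTGCAT) was found in 0.271% and 1.38% of shared peaks, the SOX motif (CATTGTNA or TNACAATG) in 1.09% and 1.38%, and the KLF4 motif (GGGTGTGG or CCACACCC) in 2.71% and 3.79%. The intervals of the difference from SSRP1-only peaks included 0 for the octamer, SOX, and KLF4 motifs in both positions. The E box (CACGTG), which MYC and USF factors bind, was present in 9.23% of shared and 7.42% of SSRP1-only peaks at a TSS (difference 1.80 points, -0.341 to 4.28), and 7.15% of promoters.

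Of the remaining motifs, the NRF1 (GCATGCGC or GCGCATGC), ETS (CCGGAAGT or ACTTCCGG), YY1 (AAGATGGC or GCCATCTT), CRE (TGACGTCA), AP-1 (TGANTCA), and ZFX (AGGCCTAG or CTAGGCCT) motifs were found in 1.09% to 4.34% of shared peaks at a TSS. The CTCF core (AGGGGGCGC or GCGCCCCCT) was found in 2.99%. The ZNF143 motif (ACTACAATT or AATTGTAGT) was found in 0 of the 1027. For all 8, the interval of the difference from SSRP1-only peaks at a TSS included 0.

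**Figure D3:**
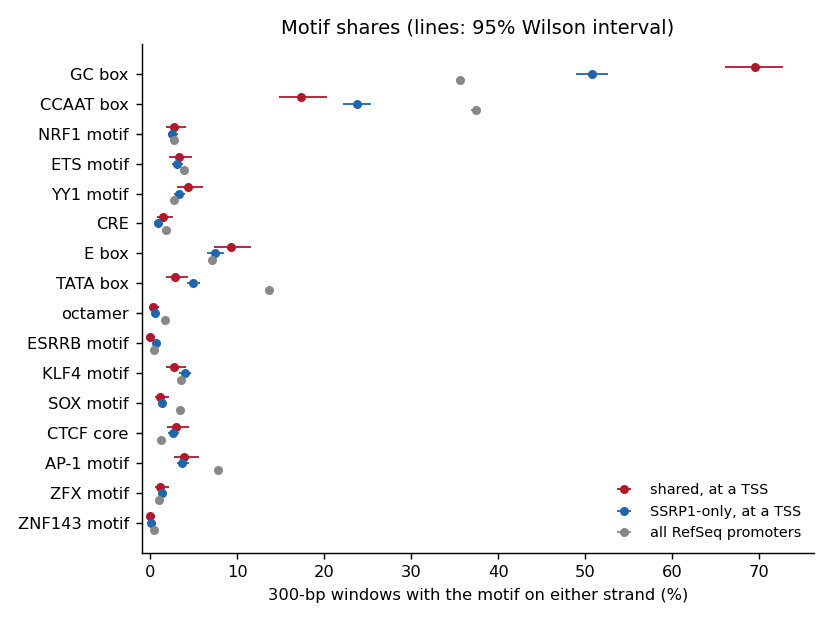
Percentage of 300-bp windows (x axis) that hold each of 16 motifs (y axis) on either strand, with 95% Wilson intervals, for shared narrow peaks at a TSS (red), SSRP1-only narrow peaks at a TSS (blue), and all RefSeq promoter windows (grey). The GC box is at 69.5%, 50.8%, and 35.6% in this order, and the CCAAT and TATA boxes run in the opposite order. Promoter windows are matched neither for GC content nor for position.

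By the nearest-gene assignment that was deposited with the peaks, the 1027 regions belonged to 1009 genes, of which 932 carried 1 shared peak. At 714 of the genes a shared peak lay within 1000 bp of their own TSS. Only 3 genes carried more than 3, each as a cluster, and whether reads there map to several copies was not tested. Gm3264 had 8 between chr14:4181955 and chr14:4856292, Gas8 had 7 between chr8:123543603 and chr8:123595346, and Erdr1 had 7 between chrY:90719385 and chrY:90832966. A further 9 genes had 3.

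Genes with a shared narrow peak had higher expression than genes in general. An expression value was available for 926 of the 1009 genes and lacking for 83. The median control value per kb of exon was 16.1 for the 926 genes, 9.98 for the 4457 genes with a narrow SSRP1-only peak, 18.1 for the 1125 genes with a broad peak, and 8.05 for all 15384 genes. On the log2(value + 0.5) scale without length the medians were 5.59, 4.98, 5.56, and 4.50. Divided into 4 classes by control value per kb, 2.50%, 4.24%, 6.89%, and 10.5% of genes carried a shared narrow peak from the lowest to the highest class. A narrow SSRP1-only peak was less graded, with 22.1%, 28.0%, 31.9%, and 33.9%. RNA of the chromatin compartment had the same order. Its median log2(CPM + 1) was 1.97 and 2.66 in the 2 libraries for genes with a shared narrow peak and 1.29 and 1.75 for all genes.

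Ribosomal protein genes, whose products build the cytosolic ribosome, often carried a shared narrow peak. Of 75 genes, 18 did (24.0%), compared with 4.34% of all 21432 protein-coding genes and 10.5% of the highest expression class. Among them were Rpl17, Rpl24, Rpl26, Rpl31, Rplp0, Rps9, Rps13, Rps15, Rps23, and Rps26. In 12 of them the peak lay within 1000 bp of the gene's own TSS, at Rps15 18 bp, at Rps23 53 bp, and at Rpl17 116 bp downstream by its centre. A broad SSRP1 peak was assigned to 48 of the 75 genes. Ribosomal protein genes have many processed copies in the genome, so reads and peaks of a parent gene and its copies may not be told apart.

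Genes of RNA processing, protein folding, and translation carried shared narrow peaks as well. Of 25 SR and hnRNP splicing factor genes, 9 carried a shared narrow peak, namely Srsf1, Srsf3, Srsf10, Tra2a, Tra2b, Hnrnpa3, Hnrnpab, Hnrnpd, and Hnrnpk. Heat shock and chaperone genes had 5 of 19, with Hspa8, Hspa4, and Dnajb1 of the HSP70 system and Cct2 and Cct4 of the chaperonin that folds actin and tubulin. At Hspa8 the peak (chr9:40801027-40801614) spanned the TSS and shared 574 of its 588 bp with SUPT16. Translation factors and tRNA synthetases had 7 of 37, with Eif4a1, Eif4g1, Eif4g2, Eif4h, Eif5a, Aars, and Dars. Some of these peaks were away from the gene's TSS. Those of Srsf3, Hnrnpab, Eif4a1, and Eif4g1 centred 7092, 5030, 3145, and 20758 bp downstream of it.

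Chromatin and elongation genes were also represented, with 28.0% and 10.7% of the lists. Of 25 histone chaperones and remodellers, 7 carried a shared narrow peak, namely the histone chaperones Nap1l4, Npm3, Hira, Daxx, and Anp32e and the remodellers Chd2 and Ino80. The Daxx peak was intergenic, 6386 bp downstream of the TSS, and overlapped SUPT16 by only 14 bp. Of the 2 Chd2 peaks, 1 centred at -16368 bp from the TSS. The elongation list had 3 of 28, with Cdc73 and Rtf1 of the PAF1 complex and Cdk9, the kinase of P-TEFb. At Cdk9 the 882-bp peak (chr2:32712597-32713478) was covered wholly by SUPT16. None of 12 RNA polymerase II subunit genes carried one. Of 45 replication-dependent histone genes, 3 had a shared narrow peak (Hist1h2bb, Hist1h2bm, and Hist1h4b) while 29 had a broad peak. Histone genes are near-identical copies, so that the assignment of reads among them is uncertain.

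The lists of developmental and signal-responsive genes held between 0 and 4 each, where 4.34% of all protein-coding genes carried a shared narrow peak. The pluripotency list had 4 of 25 (Tbx3, Zfp42, Tcf3, and Zfp281), of which Tbx3 had its peak 9160 bp downstream of the TSS. Tcf3 on this list is the E2A gene on chromosome 10. It is not Tcf7l1, the stem cell regulator that is also called TCF3. The immediate early list had 4 of 22 (18.2%, Ier5l, Btg2, Srf, and Maff) and the signalling list 4 of 28 (14.3%, Nodal, Smad2, Smad7, and Etv4). The cell cycle list had 1 of 26 (3.85%, Cdkn1a, the p21 inhibitor). The Etv4 peak and 1 peak of Smad7 centred 12595 and 16501 bp downstream of the TSS. None of 25 neural and germ layer transcription factor genes carried one, and 9 of these carried a narrow SSRP1-only peak. Such a peak was also assigned to 17 of 25 pluripotency, 13 of 22 immediate early, and 16 of 28 signalling genes.

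Depletion of SSRP1 was followed at the 926 genes with a value. Of these, 102 were called higher in KD (11.02%), compared with 8.07% of all 15384 genes, and 82 were called lower (8.86%), compared with 20.6% of all genes (limma, absolute log2 fold change above 1 and adjusted p below 0.01). The control and KD libraries did not overlap at 680 of the 926 genes (73.4%), compared with 73.3% of all genes. The median log2 fold change was 0.21 for genes with a shared narrow peak and -0.03 for all genes. Bulk values do not tell fewer cells of a type from less RNA per cell, and p-values measure the spread between the 4 libraries of each group, which the study's methods describe as biological replicates.

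Most of this contrast was shared with genes of equal expression. In the 4 classes of mean log2 value over the 8 libraries, 36.05%, 20.7%, 4.60%, and 2.07% of genes with a shared narrow peak were called lower, compared with 54.3%, 21.2%, 4.97%, and 1.82% of all genes. Called higher were 0.00%, 7.59%, 9.96%, and 15.0%, compared with 1.87%, 5.67%, 9.44%, and 15.3%. Only the lowest class, with 86 genes with a shared narrow peak, was apart from the background by more than 2 points in calls to lower values. Every KD library held more reads than every control library, and the part of depth in these calls was not tested. The scaling mattered as well. After quantile normalization the median log2 fold change was 0.05 for genes with a shared narrow peak and 0.05 for all genes, whereas spike-in scaling moved both up, to 1.22 and 0.95. Calls to higher values after quantile normalization were less frequent in genes with a shared narrow peak (8.10%) than in all genes (9.87%), the reverse of the order above. Calls to lower values were at 7.78% and 10.8%.

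**Figure D4:**
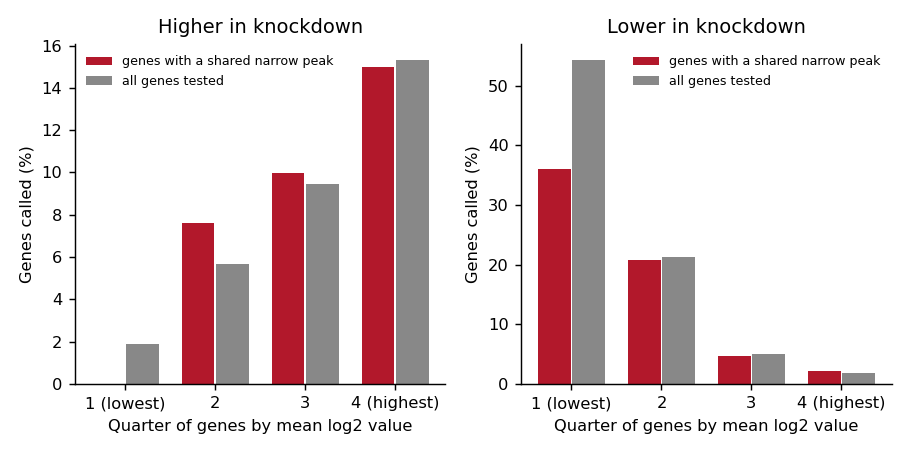
Percentage of genes called higher (left) or lower (right) in KD (y axes) in 4 equal classes of all tested genes by mean log2 value (x axis), for genes with a shared narrow peak (red) and all genes (grey). The bars of both sets are close in the upper 3 classes, and in the lowest class 36.05% against 54.3% of genes were called lower.

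Genes were also divided by the place of the peak, without a test of the difference. The median log2 fold change was 0.24 for genes with a shared narrow peak at a TSS and 0.04 for those with one farther away. Of 745 genes assigned a shared narrow peak at a TSS, 10.9% were called higher and 8.19% lower, and of 209 genes assigned one farther away, 23 were called higher and 24 lower (11.5%). Genes with a broad SSRP1 peak were called higher in 17.2% and lower in 8.09% of cases, and those with a narrow SSRP1-only peak in 8.75% and 15.4%. A gene may belong to several of these sets. Among the 514 genes with a shared narrow peak and no other SSRP1 peak, 10.3% were called higher and 8.37% lower.

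Ribosomal protein genes with a shared narrow peak had KD values above control throughout. Of the 18, 10 were called higher and none lower, all 18 had a positive log2 fold change, and the median was 1.05 (0.83 to 1.32). The whole list of 74 genes with a value had 47 called higher and a median of 1.09. After quantile normalization 1 of the 18 was called and the median was 0.33, with all 18 still positive. Rps13, a small subunit protein with its peak at chr7:116333743-116334134, read 107, 102, 97.9, and 108 in control and 246, 251, 265, and 242 in KD. The groups did not overlap (log2 fold change 1.27, SE 0.06, limma adjusted p = 3.78e-17). Rpl26 read 705, 611, 645, and 638 in control and 1391, 1385, 1495, and 1258 in KD, also without overlap (1.09, SE 0.06, limma adjusted p = 1.92e-14), but its log2 fold change was 0.24 after quantile normalization.

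The 3 histone genes were all called higher, as were 40 of the 44 histone genes with a value, and 1 of the 3 was called after quantile normalization. Hist1h4b, whose 784-bp peak at chr13:23756867-23757650 had its centre in the coding exon, had values of 360.5, 336, 274, and 341 in control and 1097, 1002, 1138, and 1048 in KD. Its log2 fold change was 1.71 (SE 0.07, limma adjusted p = 8.7e-18) and 0.94 after quantile normalization.

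Among histone chaperones and remodellers, 4 of 7 were called higher, compared with 9 of 25 on the whole list and 8.07% of all genes, and 2 of 7 were called after quantile normalization. Npm3, a nucleoplasmin with its peak 2969 bp downstream of the TSS, read 29.4, 30.1, 34.8, and 34.5 in control and 97.3, 96.8, 98.8, and 97.98 in KD (log2 fold change 1.59, SE 0.07, limma adjusted p = 3.81e-17). Anp32e, which removes H2A.Z from nucleosomes, had its peak 22200 bp downstream of the TSS and a log2 fold change of 1.58 (SE 0.07, limma adjusted p = 7.27e-17). Npm3 and Anp32e both stayed at 1.36 after quantile normalization. Nap1l4 and Ino80 were at the threshold, with log2 fold changes of 1.01 each, and fell short of it after quantile normalization (0.55 and 0.61). Hira, Daxx, and Chd2 were not called (0.03, 0.51, and -0.47).

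None of the 9 splicing factor and 5 heat shock genes was called, compared with 3 of 25 and 6 of 19 called higher on the whole lists. Their log2 fold changes were 0.23 to 0.79 and 0.45 to 0.93, and after quantile normalization 4 of 9 and 3 of 5 were positive. Of the 7 translation genes, Eif4a1 (1.10) and Eif4g1 (1.03) were called higher, but not after quantile normalization (0.24 and 0.33). On the whole list 8 of 37 were called higher, and of all genes 8.07%. Eif4g2 had -0.25, which became -1.07 with a call to lower after quantile normalization and 0.77 with spike-in scaling. Cdc73, Rtf1, and Cdk9 were not called (-0.34, 0.33, and 0.67). The negative values of Cdc73 and Chd2 became positive with spike-in scaling (0.67 and 0.55).

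Single regulators were called in both directions. Zfp42 was the 1 gene called among the 4 genes of the pluripotency list with a shared narrow peak (10 of 25 on the whole list were called higher). It read 248, 249, 238, and 223 in control and 549, 540.2, 569, and 519.7 in KD (log2 fold change 1.18, SE 0.06, limma adjusted p = 1.31e-16, and 0.56 after quantile normalization). Btg2, an antiproliferative immediate early gene with its peak at chr1:134078113-134079092, read 230.3, 182, 196, and 219 in control and 94.4, 94.3, 92.7, and 95.1 in KD (log2 fold change -1.13, SE 0.06, limma adjusted p = 7.66e-15), but its log2 fold change was -0.10 with no call under spike-in scaling. Maff, a small MAF transcription factor, rose from 9.94, 9.12, 15.4, and 9.98 to 31.6, 31.0, 28.5, and 27.1 (1.40, SE 0.13, limma adjusted p = 1.12e-10). Of the 4 immediate early genes with a shared narrow peak, 1 was thus called higher and 1 lower. On the whole list, 4 were called higher and 4 lower of 18 with a value. The ETS factor gene Etv4, with its peak 12595 bp downstream of the TSS, was the 1 gene called among the 4 signalling genes with a shared narrow peak. Its log2 fold change was 1.27 (SE 0.07, limma adjusted p = 8.83e-15), and 0.95 after quantile normalization. The whole list had 5 called higher and 3 lower. The groups did not overlap for any of these 4 genes.

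Among the 10 genes with the highest control values, not corrected for length, and a shared narrow peak at their own TSS, 3 were called higher (Rmrp, Pkm, and Rpl26), compared with 15.3% of all genes in the highest expression class. After quantile normalization Rmrp alone of these 3 had a log2 fold change beyond 1 (1.56). The others were Hspa8, Rplp0, Ppia, Pabpc1, Eif4g2, Gnb2l1, and Hspa4. Pkm, the pyruvate kinase of glycolysis, read 1704, 1644, 1524, and 1549 in control and 3997, 3997, 4067, and 3701 in KD (log2 fold change 1.30, SE 0.07, limma adjusted p = 7.02e-15, 0.68 after quantile normalization). Pabpc1, the poly(A)-binding protein gene, had a negative log2 fold change without a call (-0.59, SE 0.07, limma adjusted p = 1.36e-08, with -1.40 after quantile normalization and 0.44 with spike-in scaling).

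The widest rises among called genes without overlap were those of Ankrd45, Ddah2, Insig1, Rmrp, and Ldha. Ankrd45, with a peak 27902 bp downstream of its TSS, read 10.6, 8.26, 16.9, and 10.7 in control and 55.9, 56.9, 54.7, and 55.4 in KD (log2 fold change 2.26, SE 0.13, limma adjusted p = 8.25e-15). Ddah2, an enzyme that degrades methylarginines, had its peak 244 bp downstream of the TSS and rose from between 13.3 and 16.5 to between 56.8 and 68.7 (2.02, SE 0.09, limma adjusted p = 4.25e-17). Insig1, which holds the sterol sensor SCAP in the ER, had its peak 27834 bp downstream of the TSS and a log2 fold change of 2.01 (SE 0.07, limma adjusted p = 3.77e-19).

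Rmrp, the RNA of RNase MRP and a product of RNA polymerase III, read 2197, 1438, 1117, and 1816 in control and 5862, 5675, 6200.1, and 5582 in KD (1.87, SE 0.13, limma adjusted p = 2.11e-13). It also had 30615 and 43405 counts in the chromatin libraries. Ldha, the lactate dehydrogenase of glycolysis, had its peak across the TSS at chr7:46846549-46847136 and read 230.2, 206, 185, and 213 in control and 792, 804, 773, and 674 in KD (1.86, SE 0.07, limma adjusted p = 6.11e-19). All 5 had log2 fold changes of at least 1.21 after quantile normalization as well.

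The widest falls were at genes with remote peaks, as were the rises of Ankrd45 and Insig1. LOC100861668 read 74.1, 103, 131, and 102 in control and 0.124, 0.352, 0.259, and 2.203 in KD (log2 fold change -6.63, SE 0.27, limma adjusted p = 1.06e-17). Its peak at chr8:20016011-20016696 ended 597708 bp from the nearest TSS of the gene, and the gene belongs to a family of near-identical copies. The peaks of Frem1 (-3.36), Gm5795 (-3.08), Nlrc5 (-2.88), and Xirp1 (-2.88) lay 51147, 144059, 18284, and 12099 bp from their TSS. Nlrc5, the activator of MHC class I genes, read 32.4, 40.1, 49.2, and 30.4 in control and 4.45, 4.87, 4.27, and 4.93 in KD (SE 0.14, limma adjusted p = 1.42e-16), and Xirp1, an actin-binding muscle protein, had between 17.6 and 21.2 and between 2.10 and 2.44 (SE 0.15, limma adjusted p = 1.81e-15). The nearest-gene rule assigns such peaks whatever the distance.

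**Figure D5:**
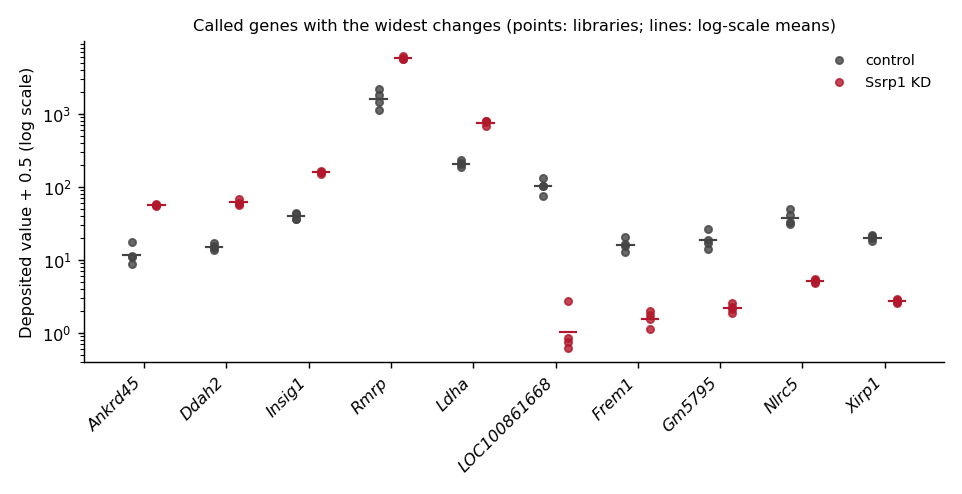
Deposited values plus 0.5 (y axis, log scale) of the 5 widest rises and 5 widest falls (x axis) among called genes with a shared narrow peak, with 4 control (grey) and 4 KD (red) libraries as points and log-scale means as lines. The libraries of both groups do not overlap for any of the 10 genes, and LOC100861668 has 1 KD library at 2.203 above the other 3.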

How the data were processed

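SSRP1 and SUPT16 peak lists, RNA-seq of 4 control and 4 KD libraries, and chromatin RNA of 2 libraries were analysed. The members and lists were chosen with earlier results of these data known. The authors aligned ChIP reads to mm10 with Bowtie2 2.2.6, called peaks with PePr on both replicates at an FDR below 1e-05, and assigned genes with ChIP-Enrich. The deposited RNA-seq signal per gene is a read number divided by 1 factor per library, made by the authors with STAR, featureCounts, and a filter above 1 CPM. Each chromatin RNA count was deposited unscaled (aligner not given in the sources used here). The authors' comparison tables (fold changes, p-values, exon usage) and all other assays were not used.

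Whole reads were recovered for 100% of values (tolerance 0.1 read), 4602278 to 6680919 per control and 9433193 to 19856032 per KD library. Every KD library was thus deeper than every control library, so that depth cannot be told apart from KD. The chromatin libraries held 3441643 and 3393923 counts, 33.7% and 33.8% of them in 2 genes.

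KD was compared with control by limma 3.58.1 with a mean-variance trend, after adding a pseudocount of 0.5 to each value and taking log2. The p-values were adjusted by Benjamini-Hochberg over all 15384 genes, and a call needed an adjusted p below 0.01 and a change beyond 1 on the log2 scale. Fold changes on this scale understate changes of low genes. edgeR 4.0.16 and DESeq2 1.42.0 ran on recovered reads as alternatives, with other pseudocounts, filters, scalings, a replicate block, and libraries left out. Peaks were set against RefSeq GRCm38 transcripts (without miRNA and snoRNA), with GC, CpG, and motifs read from the central 300 bp. Shares carry 95% Wilson and differences Newcombe intervals, which cover counting error only. The step was tested on simulated data. Python 3.11.15, pandas 2.3.3, and pysam 0.24.0 were used.

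Genes were named by rule: those of 13 lists with a member, the 10 with the highest control value and a member at their own TSS, for each direction the 5 called genes that changed most with no overlap between libraries, and those with most members (3 genes, since 9 tied after them). Windows printed were limited to list genes at a TSS without untranslated exon sequence, and 6 were shown.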

Additional observations from a re-analysis of the deposited data

Results flagged for a closer look

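In 2 of the 38 groups of 4 libraries examined, 1 library stood far from the others by Dixon's ratio of its gap to the range of the group, above the 95% critical value. Chance alone gives about 1 such group in 20. LOC100861668 read 2.203 in KD replicate 4 and 0.124 to 0.352 in the other KD libraries (ratio 0.890), all far below the control libraries. Hspa8 read 4128 in KD replicate 3 and 3819 to 3858 in the others (ratio 0.873).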

How the results depend on the processing

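The number of regions fell from 1027 to 951 with an overlap of 100 bp or more, to 640 with at least 50% of the peak covered, and to 543 with a length under 500 bp. The share within reach of a TSS was 75.3% with a window of 2000 bp and 68.5% with curated transcripts only, an alternative chosen after seeing the data, and the other alternatives stayed within the interval of 71.8%. The median GC content was 63.9% over whole peaks. Genes with a shared narrow peak called higher numbered 572, and 18 were called lower, with spike-in scaling (median log2 fold change 1.22), where 48.1% of all genes were called higher and 7.03% lower. They numbered 446 and 235 with adjusted p alone (35.4% and 37.3% of all genes). With at least 50% of the peak covered, 573 genes with a shared narrow peak remained. Of these, 58 were called higher (10.1%) and 61 lower (10.6%), compared with 8.07% and 20.6% of all genes. Calls to lower values thus outnumbered calls to higher values there, the reverse of the main setting. Quantile normalization moved the median log2 fold change to 0.051, and 75 genes were called higher (8.10%) and 72 lower (7.78%). It also moved all genes from 8.07% higher and 20.6% lower to 9.87% and 10.8%. The cause was not tested. No call count moved beyond 1.5 times with other pseudocounts, the filter, TMM, edgeR, or DESeq2. The study's methods name TMM, and TMM scaling left the median over all genes almost unchanged (-0.035 and -0.036). TMM, and edgeR with its TMM factors, thus nearly repeat the deposited scaling and are no separate check of it. Without 1 RNA-seq library, 98 to 112 genes were called higher and 78 to 88 lower, and the median was 0.20 to 0.22. The chromatin RNA median of 2.30 was 1.97 to 2.66 with single libraries. With the replicate block the counts were 102 and 82. A block cannot change the fold changes of this balanced design, so the equal counts are no separate check of them. Same-numbered libraries did not deviate together (correlations -0.06 to 0.02).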

Other observations

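A broad SSRP1 peak was assigned to 136 of the 926 genes with a shared narrow peak. Their median control value per kb was 37.3, compared with 14.7 for the 514 genes whose SSRP1 peaks were all shared narrow ones, and 16.2% were called higher in KD and 4.41% lower (limma). The 54 narrow SSRP1 peaks away from a TSS with 70% GC or more included 22 that were shared with SUPT16.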
